A study of Mus musculus with 2 samples.

Results

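The Bcl2 family genes described here were Bcl2, Bcl2l1, Mcl1, Bax, Bak1, Bad, Bid, Bcl2l11, Bbc3 and Pmaip1, chosen by name as the main survival and death genes of the family. No value entered the choice as a rule, but it was made with earlier results of these data known. Every non-control probe of the array whose RefSeq accession belonged to one of these genes was taken, which gave 13 probes for the 10 genes, out of 27235 named probes for 20660 genes. Bcl2l1, Mcl1 and Bad had 2 probes each and the other 7 genes had 1. The RNA came from pre CFU-E, primitive erythroid progenitors sorted from bone marrow as lineage-negative cells with no or low Fcg receptor II/III, low CD41, c-Kit, endoglin and CD150 but no Sca1, of WT C57BL/6 mice and of ESAM-KO mice, which lack the endothelial cell-selective adhesion molecule in every cell. All mice were 8 to 12 weeks old and had received a single injection of 120 mg/kg of 5-FU, an antimetabolite that kills dividing cells, 8 days before they were sacrificed. Marrow of 3 mice was pooled before each sort, and each genotype was hybridised to 1 single-colour Agilent array, so that values carry neither an SD nor a test, and genotype cannot be told apart from pool, sort or amplification.

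Proteins of the Bcl2 family decide whether the outer membrane of the mitochondrion stays closed. Bcl2, Bcl2l1 (which encodes Bcl-xL) and Mcl1 keep it closed, Bax and Bak1 open it and release cytochrome c, and the BH3-only proteins Bad, Bid, Bcl2l11 (Bim), Bbc3 (Puma) and Pmaip1 (Noxa) either block the survival proteins or activate the effectors. In the erythroid lineage Bcl2l1 is the survival gene best known to be raised by erythropoietin signalling through Stat5 and by Gata1, Mcl1 is needed in early progenitors, and Bbc3, Pmaip1 and Bax are known targets of p53 after DNA damage.

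The signal of every spot was taken after the background subtraction of the scanner software and was set relative to the 75th percentile of its array, 201.4 for WT and 251.1 for ESAM-KO, which takes 0.32 off all log2 ratios of ESAM-KO over WT. The lowest signals that the software flagged as well above background were 12.6 and 13.2. The Esam probe gave 27.4 (WT) against 20.6 (ESAM-KO), which is -0.73 as a log2 ratio, and whether it lies in the deleted part of the gene is not given in the sources used here. All 8 erythroid markers were well above background on both arrays, with a summed level of 76.9 in WT and 76.0 in ESAM-KO, in multiples of the 75th percentile. The near-equal sums hide single differences, with 5 of these markers lower and 3 higher in ESAM-KO, none past 2-fold. Their log2 ratios at the brightest probe ran from -0.80 for Eng to 0.89 for Tfrc, with a median of -0.21. In contrast, all 7 neutrophil markers were over 2-fold higher in WT, with a summed level of 241.8 in WT and 35.2 in ESAM-KO, 6.87-fold apart. The summed level of 5 B cell markers, of which Ms4a1 was not above background, was 1.99 and 0.662. The sums of the megakaryocyte, macrophage and T and NK cell markers lay between 0.931-fold and 1.27-fold of each other in WT over ESAM-KO, with C1qc, Cd3g and Klrb1c above background on neither array. Single markers in these lists differed more, with log2 ratios of -2.88 for Vcam1, 1.19 for C1qa and 1.28 for Vwf, and Gp9, Ppbp and Cd3d above background in WT only. Bulk arrays cannot tell fewer cells of a type from less RNA per cell, and the part of these cells in the values below was not tested.

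All 13 probes were well above background on both arrays, so that each gave a measured ratio. Past 2-fold, the threshold of the study, lay 1 of the 13 probes, the brighter probe of Bcl2l1, compared with 16.5% of the 18366 named probes that had a ratio. Counted by gene at the brighter probe, 1 of the 10 genes differed, compared with 15.4% of 14136 genes. Some of those genes passed the background flag on 1 array only. Among the 12615 genes that passed on both arrays, as all 10 did, the share was 12.6%. Other settings gave 2 of 10 genes against 15.4% to 17.8% of all genes, or 1 of 10 against 5.11% with normexp background correction, so that a difference of 1 gene decided which share was higher. By role, 3 of 3 survival genes were lower in ESAM-KO, although Bcl2 and Mcl1 turned to higher without scaling between the arrays, and 2 of 2 effector genes were higher. Of all genes with a ratio, 49.9% were lower and 50.1% higher. Of the 5 BH3-only genes, Bcl2l11 and Bbc3 were lower, Pmaip1 was higher, and Bid and Bad were near 0 at their brighter probes, with signs that turned between scalings. The median log2 ratio of the 10 genes was -0.11, and that of the 12615 genes well above background on both arrays was -0.02.

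**Figure D1:**
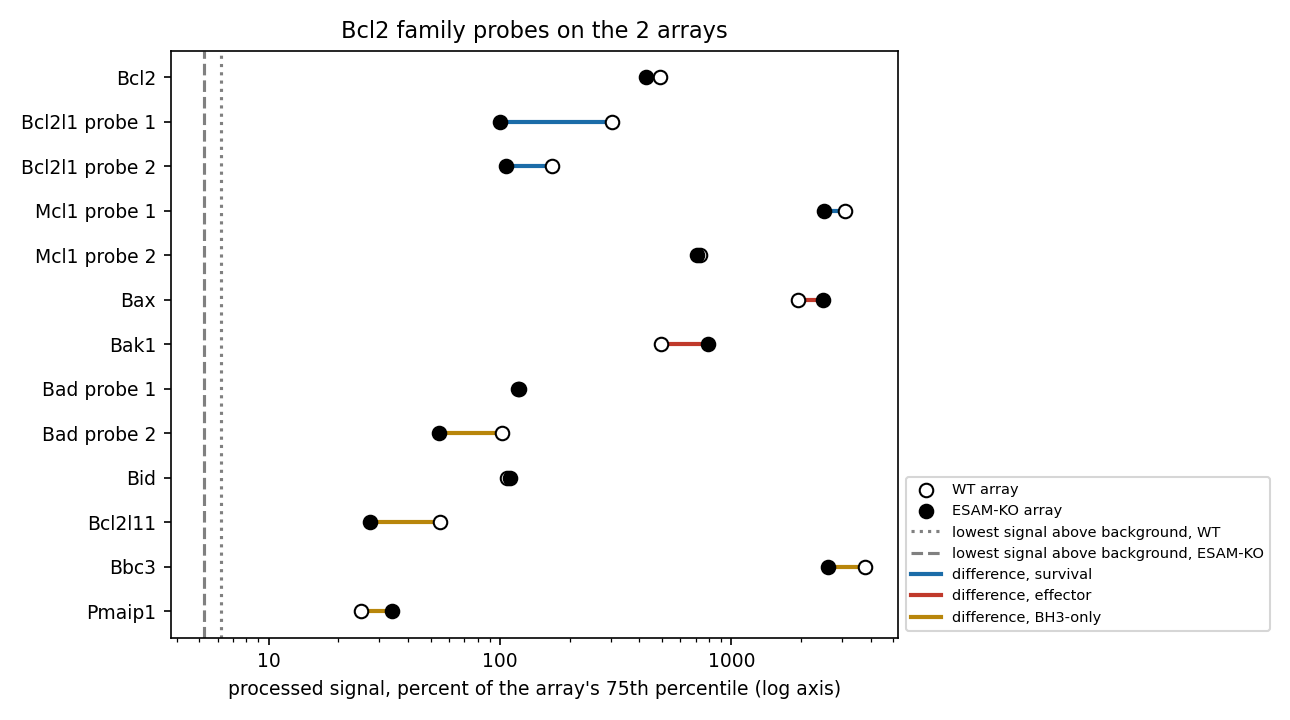
Processed signal of each Bcl2 family probe on the WT array (open circles) and the ESAM-KO array (filled circles), as a percent of the 75th percentile of that array, on a log axis, with the line between them coloured by role and the lowest signals above background as vertical lines. Both probes of Bcl2l1 were lower in ESAM-KO, whereas Bax and Bak1 were higher, and every probe lay to the right of the background lines.

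Bcl2l1 showed the largest difference among the 10 genes. The signal of its brighter probe was 613.9 (WT) against 251.5 (ESAM-KO), which after scaling is a log2 ratio of -1.61 ± 0.21 (scanner software's error), or 3.04-fold lower in ESAM-KO. The other probe gave 339.0 against 266.4, or -0.67 ± 0.21, which is 1.59-fold lower. Thus, both probes lay below 0 by more than the spot error, but they differed from each other by 0.94, and the dimmer probe was within 2-fold. Of the genes well above background on both arrays, 2.69% had a lower ratio than the brighter probe. Both probes carry the accession NM_009743, 1 of 11 RefSeq transcripts of this gene. The gene is spliced into long and short forms with opposite functions, and the files do not say which of them a probe reads.

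The other survival genes differed by less than Bcl2l1 at its brighter probe. Bcl2, which protects lymphoid and early blood cells, gave 986.7 (WT) against 1068 (ESAM-KO), and after scaling a log2 ratio of -0.20 ± 0.20. The only probe of Bcl2 carries NM_177410, 1 of 2 RefSeq transcripts of the gene. Mcl1, which encodes a short-lived survival protein, gave 6262 (WT) against 6278 (ESAM-KO) at its brighter probe and 1472 against 1783 at the other. The scaled log2 ratios of Mcl1 were -0.31 and -0.04, each ± 0.20, so that the first exceeded its spot error and the second did not. The signs of Bcl2 and of both Mcl1 probes turned without scaling between the arrays, to 0.11 for Bcl2 and 0.0036 and 0.28 for Mcl1. Neutrophils, whose markers were lower in ESAM-KO by 2.53 to 4.20 on the log2 scale, are also known to depend on Mcl1. The lineage antibodies of the sort included Gr1 and Mac1, which mark neutrophils, and their part in the Mcl1 signal was not tested.

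Both pore-forming effector genes were higher in ESAM-KO. For Bax the signal was 3904 (WT) against 6240 (ESAM-KO), a scaled log2 ratio of 0.36 ± 0.20. For Bak1 it was 994.5 against 1992, a scaled log2 ratio of 0.68 ± 0.20, or 1.61-fold higher. Each ratio exceeded the spot error and neither was past 2-fold. Of the genes well above background on both arrays, 10.6% had a higher ratio than Bak1 and 23.8% a higher ratio than Bax. The direction of both genes was the same under all 10 other scalings, filters and sources of the values, of which the filters could not move either gene. Only without scaling did Bak1 reach 2-fold, at 1.00.

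A difference between the log2 ratios of a pair of genes does not depend on the scaling constant of each array, and so gives the survival genes relative to the effectors directly. For Bcl2l1 minus Bak1 it was -2.29 with an error of 0.29 at the brighter Bcl2l1 probe and -1.35 at the other. In other words, the signal of Bak1 relative to that of Bcl2l1 was 4.89-fold higher in ESAM-KO than in WT at the brighter probe and 2.55-fold higher at the dimmer probe. For Bcl2l1 minus Bax, the difference was -1.96 at the brighter probe and -1.02 at the dimmer one. The difference at the dimmer probe against Bax was within 2-fold with quantile normalization, at -0.97, and with normexp background correction, at -0.78. The other 3 differences for Bcl2l1 stayed past 2-fold under all 10 alternatives with a value per probe. Of these alternatives, only quantile normalization, cyclic loess and normexp background correction could move a difference by more than rounding. For Bcl2 the differences were -0.56 against Bax and -0.89 against Bak1, and for the brighter Mcl1 probe they were -0.67 and -0.998, the latter a fold of 1.998. At the dimmer Mcl1 probe, the differences were -0.40 and -0.73. The differences ranged from 1.32-fold to 4.89-fold, and their common sign follows from the ratios given above, since all of them use the same values of Bax and Bak1. With 1 array per genotype there is no measure of how far they vary between pools.

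**Figure D2:**
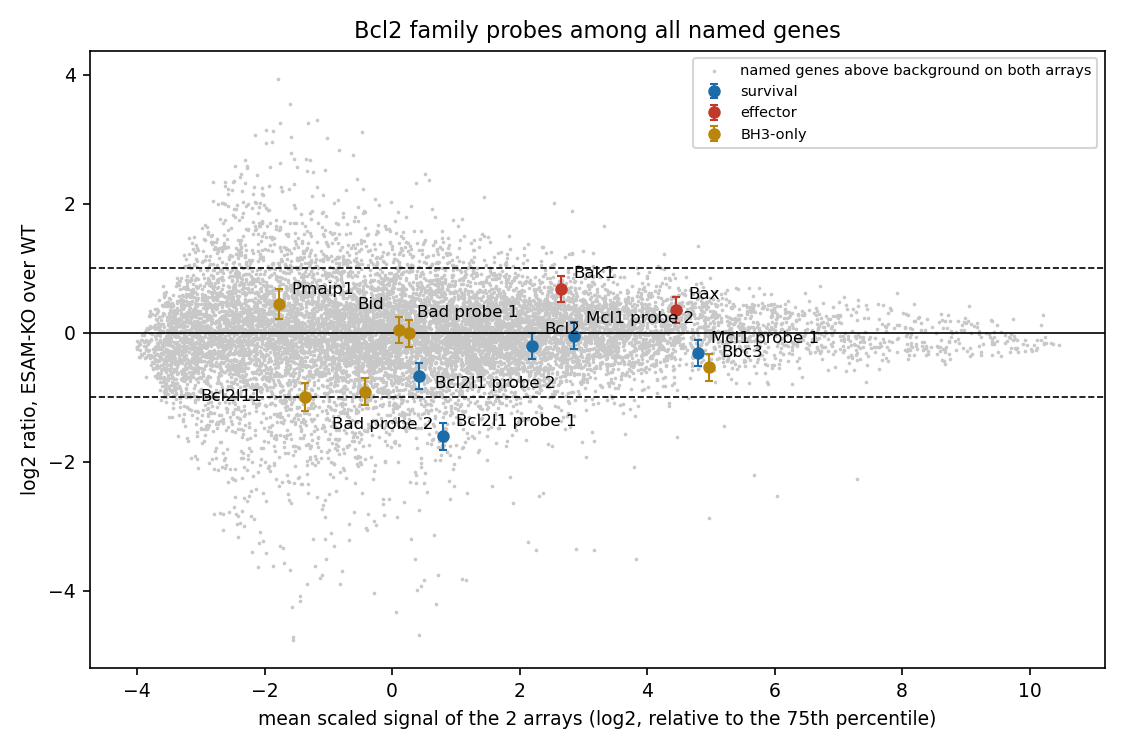
Log2 ratio of ESAM-KO over WT against the mean scaled log2 signal, for 12615 named genes above background on both arrays (grey points) and for the 13 Bcl2 family probes coloured by role, with bars for the scanner software's error and dashed lines at 2-fold. The brighter probe of Bcl2l1 lies below the lower dashed line, Bcl2l11 lies on it, and Bax and Bak1 lie above 0.

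The BH3-only genes did not move together. Bcl2l11, which encodes the Bim protein that is raised when growth factor is withdrawn, gave 110.3 (WT) against 69.0 (ESAM-KO). Its log2 ratio of -0.995 ± 0.22, or 1.99-fold lower, was just within the threshold. It was past 2-fold in 3 of the 10 alternatives with a value per probe, and at -0.50 with normexp background correction. Its probe carries NM_207680, 1 of 9 transcripts of the gene.

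Among the known p53 targets, Bbc3 gave 7627 (WT) against 6562 (ESAM-KO), a scaled log2 ratio of -0.54 ± 0.20. Pmaip1, the family's probe nearest to background, gave 50.3 against 85.4, a scaled log2 ratio of 0.44 ± 0.23. Bax, the third of these targets, was higher as described above, so that they differed in direction, and p53 itself (Trp53) gave 3590 against 3242, or -0.47.

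Bid, which links death receptors to the mitochondrion, gave 214.6 (WT) against 276.0 (ESAM-KO), a scaled log2 ratio of 0.04 ± 0.21. Bad, which is held inactive by growth factor kinases, had probes that disagreed. The brighter gave 241.9 (WT) against 300.2 (ESAM-KO), or -0.01 ± 0.21 after scaling. The dimmer gave 206.1 against 136.3, or -0.91 ± 0.21. Both carry NM_007522, and no direction is given for Bad.

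To see how far probes differ in general, genes with 2 or more probes that passed the background flag on each array were examined. Over 3056 such genes, the log2 ratios of the brightest probes differed by a median of 0.41, and by 1.48 at the 90th percentile. The gap of 0.94 between the Bcl2l1 probes was exceeded by 21.8% of these genes, that of 0.91 between the Bad probes by 23.0%, and that of 0.27 between the Mcl1 probes by 62.8%. Spots of a single probe were far closer. For 154 probes spotted at least 9 times within the signal range of the family on the WT array, the SD of the log2 ratio over spots had a median of 0.10. Each Bcl2 family probe had a single spot on each array. The share of genes past 2-fold also depended on the signal, with 19.1% in the quartile that held Bid and Bcl2l11, 10.8% in that of Bcl2l1 and Bad, and 2.63% in the brightest quartile, which held Bcl2, Mcl1, Bax, Bak1 and Bbc3.

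The promoters of 3 genes are given as background to these values, since they carry motifs of regulators that the lineage is known to use. RefSeq windows of assembly GRCm38.p6, from 250 bases before to 50 bases after a start site, were taken for 9 of the 10 genes, in 15 windows. They were searched on both strands for the GATA motif (GATA with A or T before it and A or G after it), the STAT motif (TTCNNNGAA), the FOXO motif (GTAAACA) and the p53 response element decamer. Windows on 1 chromosome were left out for the 10 genes but kept among all genes. Pmaip1 had no window in the search, so whether its promoter holds any of these motifs was not tested. Among 32851 windows of all genes, 29.8% held the GATA motif, 8.30% the STAT motif, 3.65% the FOXO motif and 8.36% the p53 decamer. Of the 3 windows of Bcl2l1, only the most downstream held the GATA motif, in 2 places that begin 41 bases before the start and at base 36 after it, and none held the STAT motif. Among the other genes the window of Bid, whose ratio was near 0, also held a GATA motif. The FOXO motif was found in 1 window each of Bcl2l11 and Bbc3, and the p53 decamer in that of Bax. The sequences read 5′ to 3′ on the strand of the gene, with the GATA, FOXO or p53 match in capitals.
Bcl2l1, chr2:152828440-152828739, minus strand: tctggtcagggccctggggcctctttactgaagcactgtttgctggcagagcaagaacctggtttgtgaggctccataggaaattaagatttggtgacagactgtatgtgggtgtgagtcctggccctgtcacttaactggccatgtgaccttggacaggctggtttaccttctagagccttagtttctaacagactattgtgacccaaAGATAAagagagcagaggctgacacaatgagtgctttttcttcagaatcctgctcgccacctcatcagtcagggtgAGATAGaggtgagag
Bcl2l11, chr2:128125788-128126087, plus strand: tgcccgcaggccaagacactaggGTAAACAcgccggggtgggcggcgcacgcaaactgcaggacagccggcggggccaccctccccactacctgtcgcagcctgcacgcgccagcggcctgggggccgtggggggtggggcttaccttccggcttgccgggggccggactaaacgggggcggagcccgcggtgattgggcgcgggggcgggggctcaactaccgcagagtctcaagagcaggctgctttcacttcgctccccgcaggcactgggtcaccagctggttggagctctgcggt
Bax, chr7:45466849-45467148, minus strand: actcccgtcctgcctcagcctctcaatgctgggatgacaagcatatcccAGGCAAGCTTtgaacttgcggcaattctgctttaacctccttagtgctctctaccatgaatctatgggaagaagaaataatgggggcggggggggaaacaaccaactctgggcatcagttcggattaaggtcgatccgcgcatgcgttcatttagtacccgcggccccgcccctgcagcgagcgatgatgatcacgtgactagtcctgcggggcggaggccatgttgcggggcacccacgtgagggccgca
A match describes these letters only, and binding was not measured here.

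The further genes of the pathway were taken as whole lists. Of 13 other genes of the Bcl2 family, 11 had a named probe and only 4 were well above background, all of them higher in ESAM-KO, with a median log2 ratio of 0.47. These were Bcl2l15, past 2-fold at 1.02 from 27.4 in WT to 69.1 in ESAM-KO, Bcl2l12 at 0.78, Bcl2l13 at 0.16 and Bcl2l2, a survival gene, at 0.13, with 0.71 for its dimmer probe. Bcl2l15 was within 2-fold in 4 of the 10 alternatives with a value per probe, at 0.89 with median scaling and 0.35 with normexp background correction. The remaining 7, among them Bmf, Bik, Hrk and Bok, were above background on neither array and have no ratio.

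Downstream of the mitochondrion, all 11 genes of the apoptosome and caspases list were measured, with 6 higher, 5 lower and a median of 0.12. Endog, a mitochondrial nuclease, was the only one past 2-fold, at 1.20, with 149.9 (WT) against 429.6 (ESAM-KO). Cycs, which encodes the cytochrome c that the pore releases, was at 0.66 and 0.71 in its probes above background. Apaf1, the scaffold of the apoptosome, was at 0.60, whereas Casp9, the initiator caspase, was at -0.49.

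Of the 6 inhibitors of apoptosis, 3 were higher and 3 lower, with a median of -0.19 that moved to 0.13 without scaling and 0.04 with the mean of probes. Cflar, which blocks Casp8, was past 2-fold at its brightest probe, at -1.07, and past 2-fold the other way at a second probe, at 1.18, so that no direction is given for it. In the death receptor list 7 of 8 genes were measured, 6 higher and 1 lower, with a median of 0.59 and none past 2-fold at the brightest probe. That median is the value of Tnfrsf1a, of which another probe was at -1.28, and it was 0.28 with the mean of probes and 0.25 with normexp background correction. Fas was above background on neither array.

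Of the 11 upstream regulators, none was past 2-fold, 10 were lower and 1 higher, where 49.9% of all genes with a ratio were lower. Their median log2 ratio was -0.37, which became -0.05 without scaling. Gata1 was at -0.34, Epor, the erythropoietin receptor, at -0.10, Stat5a at -0.40 and Stat5b at -0.46 and -0.74 in its probes. Foxo3, a known activator of Bcl2l11 and Bbc3, was at -0.39.

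**Figure D3:**
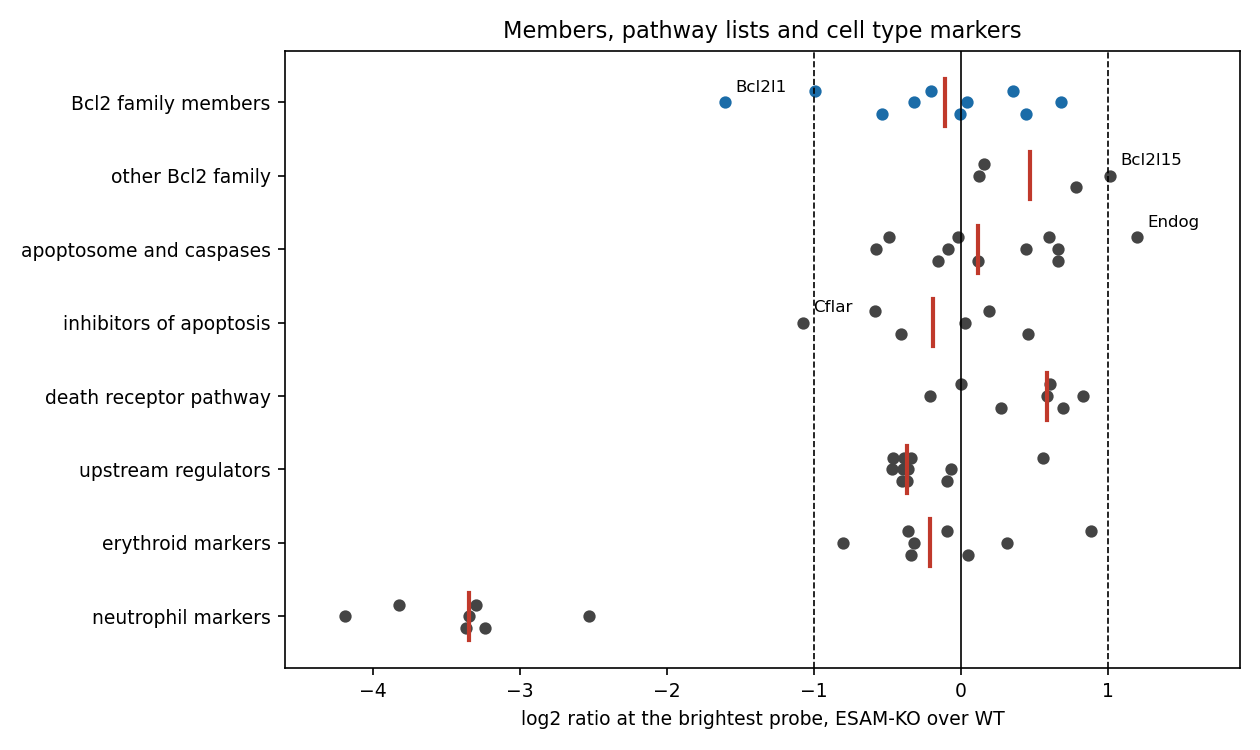
Log2 ratio of ESAM-KO over WT at the brightest probe of each gene above background on both arrays, for the Bcl2 family members, 5 pathway lists and 2 marker lists, with the median of each list in red and dashed lines at 2-fold. The neutrophil markers lie between -4.20 and -2.53, far below the Bcl2 family members, which lie between -1.61 and 0.68.

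The choice of scaling decided which probes passed the threshold. The brighter probe of Bcl2l1 was past 2-fold under all 10 alternatives with a value per probe, between -1.74 and -1.29. The dimmer probe was within 2-fold under all of them, between -0.80 and -0.35. Those alternatives that only change the filters on dim probes or outlier spots could not move a family probe. With median scaling, Bcl2l11 (-1.12) and the dimmer Bad probe (-1.04) passed as well.

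**Figure D4:**
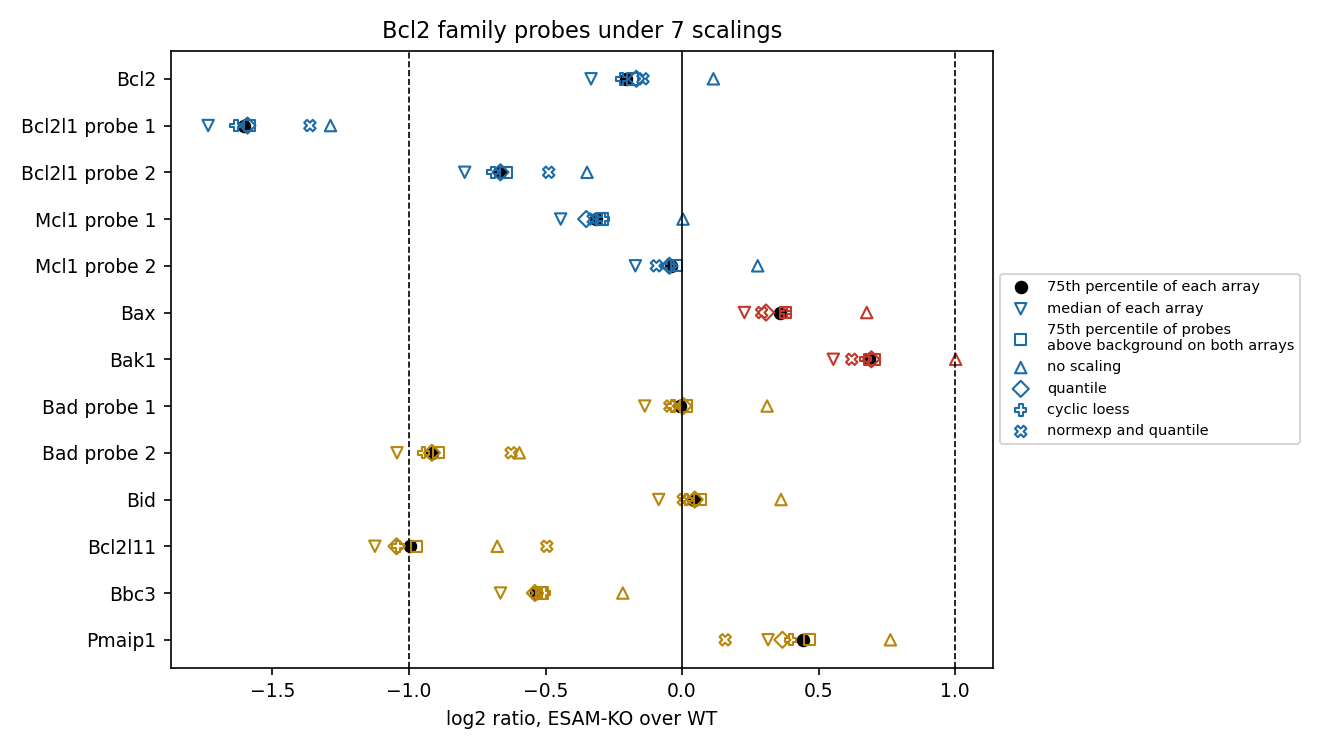
Log2 ratio of ESAM-KO over WT of each Bcl2 family probe under 7 scalings, with the scaling used in the text as filled circles and dashed lines at 2-fold. Values without scaling (upward triangles) lie furthest to the right for every probe except Bcl2l11, where normexp with quantile normalization does.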

How the data were processed

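Pre CFU-E of WT and ESAM-KO mice were each measured on 1 Agilent SurePrint G3 mouse array. The amplified RNA carried Cy3. Deposited by the authors were the spot intensity of Agilent Feature Extraction 10.10.1.1, background-subtracted and with no scaling between the arrays, its error and flags, and a series table of the same intensity, rounded.

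The log2 intensity minus the 75th percentile of the array was used. Of 59305 non-control spots, 254 outliers were left out, 0 were saturated, and spots of a probe were averaged. A probe passed the background flag if over 50% of its spots did. Where this held on 1 array only, the ratio is a bound, and on neither array no ratio is given. Accessions without versions were named through RefSeq of GRCm38.p6, which gave a symbol to 48.9% of 55680 probes. The array design is on mm9, and 28445 probes stayed without a name, so that further probes of these genes may be among them. A gene was represented by its brightest probe.

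The error of a log2 ratio combines the scanner software's errors and covers the spot only. The genes, lists and alternatives were chosen with earlier results of these data known. The text names every Bcl2 family gene with all its probes, other genes past 2-fold in the pathway lists, and fixed regulators. Bcl2l12, Bcl2l13, Bcl2l2, Cycs, Apaf1, Casp9 and Tnfrsf1a were named after their values were seen. The same holds for the single cell type markers and for the genes named as above background on neither array. The normexp alternative (offset 50) used median spot signals, as the files hold no mean. Counting was tested on simulated data. The software was Python 3.11.15, pandas 2.3.3, R 4.3.3 and limma 3.58.1. The number of arrays limits the precision.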

Additional observations from a re-analysis of the deposited data

How the results depend on the processing

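Without scaling, the Bcl2l1 probes were at -1.29 and -0.35, the median of the 10 genes at 0.21, 2 probes and 2 genes were past 2-fold (Bcl2l1 and Bak1), and 5 genes of the other lists were, compared with 3. With normexp and quantile normalization, the brighter Bcl2l1 probe was at -1.36, Bcl2l1 minus Bax at -1.65, Bcl2l1 minus Bak1 at -1.98, and 0 genes of the other lists were past 2-fold. With the mean of probes, the differences of Bcl2l1 were -1.49 and -1.82. With median scaling, 3 probes and 2 genes were past 2-fold, and with quantile normalization or cyclic loess 2 probes and 2 genes, the added gene being Bcl2l11 in each. With no filter on dim probes, 6 genes of the other lists passed. At 1.5-fold, 5 probes, 3 genes and 11 genes of the other lists passed, compared with 35% of probes and 33.2% of genes, and at 3-fold 0 genes of the other lists. In 4 other alternatives, 2 genes of the other lists passed. The remaining differences of survival probes from effectors moved by less than the spot error, but Mcl1 minus Bak1 passed 2-fold with quantile normalization, at -1.04, and the dimmer Bcl2l1 probe minus Bax no longer did there or with normexp. Of 110 values of the probes other than Bcl2l1, 96 moved by less than that error and 14 by more. The 96 include values that could not move. Changing the filter on dim probes or keeping outlier spots leaves every family probe as it was, and the series table differs only by rounding. The median of all genes moved from -0.02 to 0.30 without scaling and to -0.15 with median scaling, and the values of single probes shifted with it. No paired analysis was possible because there was only 1 array for WT and 1 for ESAM-KO. Signal over background leaves 7 other Bcl2 family genes without a ratio.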

Other observations

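Probes of some death receptor genes disagreed in direction. Cflar, which restrains Casp8, had 3 named probes. The brightest gave 156.1 (WT) against 92.5 (ESAM-KO), or -1.07 as a scaled log2 ratio, whereas a probe with another accession gave 57.2 against 161.3, or 1.18. The last probe gave 47.9 in WT and did not pass the background flag in ESAM-KO, where it was at least 4.54-fold lower. Tnfrsf1a, a receptor of tumor necrosis factor, was at 0.59 at the probe used above and at -1.28 at another probe with 10 spots. Bcl2a1d, of a survival gene group that neutrophils are known to express, was above background on neither array, with 2.67 in WT and 9.27 in ESAM-KO.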
